A study of Mus musculus with 4 samples.

Results

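The genes described here carry out the unfolded protein response and the integrated stress response in mouse thymocytes: 33 genes, chosen by name, of the 18193 genes that the arrays name by a single symbol. They comprise chaperones and folding enzymes of the endoplasmic reticulum (ER), factors of ER-associated degradation, the stress sensors, their transcription factors and targets of ATF4. Each gene was represented by its brightest probe set, that with the highest mean signal over the 4 arrays, and the other probe sets were read for agreement. Total thymocytes are the unsorted cells of the thymus, mostly developing T cells. The study compared mice hypomorphic for Atg16l1, a gene of autophagosome formation, with controls that the sample descriptions call wild-type. Both groups were 7 weeks old and held 2 animals, 1 male and 1 female, with 1 array per animal. The sources used here give neither the sex of each array nor the strain, nor how the allele was made.

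When unfolded proteins accumulate in the ER, the sensors IRE1 (gene Ern1), PERK (Eif2ak3) and ATF6 are released or activated. IRE1 splices Xbp1 mRNA, ATF6 is cut to a transcription factor, and both raise chaperone and degradation genes. PERK, like GCN2 (Eif2ak4), which senses amino acid shortage, phosphorylates the initiation factor eIF2 alpha, which lowers general translation and favours translation of ATF4. Arrays measure mRNA level, so the splicing of Xbp1 mRNA, the cleavage of ATF6 and the translation of ATF4 were not measured.

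Across these genes no difference between hypomorph and control thymocytes passed the test. Of the 33 genes, 28 were bright enough to be tested and 0 of them passed at an adjusted p under 0.05 in limma, where 0.0489% of the 10232 tested genes passed. An unadjusted p under 0.05 was reached by 7, all higher in the hypomorphs, which is 25% against 18.3% of tested genes on the higher side. That count was 1 without hypomorph replicate 1, 3 without hypomorph replicate 2, 2 without control replicate 1 and 7 without control replicate 2. It was 0 when scaling brought the median change of tested genes near 0, and 1 without the variance trend. The adjusted p-values of the 28 ran from 0.255 to 0.975. All 28 log2 changes, hypomorph minus control, were above 0, as were 82.6% of those of tested genes. Their median was 0.23, against 0.21 over all tested genes, as most genes read higher on the hypomorph arrays after each array had been centred on its median. Changes are therefore also given relative to that 0.21 and are then called relative changes. Relative changes of the 28 ran from -0.20 (Dnajc3) to 0.23 (Atf6), with 16 above and 12 below 0, and 19 of the 28 lay between the quartiles of all tested genes (-0.14 and 0.12).

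Intervals on the brightest probe sets bound the size of the changes. The 95% confidence interval of the relative change held 0 for 28 of 28 genes, against 94.1% of tested genes. It lay within a 2-fold change in both directions for 28 of 28, against 88.7% of tested genes. These intervals take the median of the tested genes as fixed. The widest bounds were those of dim genes, at 0.551-fold for Eif2ak4 on the lower side and 1.96-fold for Atf6 on the higher side. On other, dimmer probe sets the bounds were wider, reaching 2.85-fold for Atf6, 2.73-fold for Sel1l and 0.415-fold for Ern1. With 2 arrays in each group, the smallest p of an exact permutation test is 0.333, so the p-values of limma depend on its variance model. The series text calls the animals independent and says no more of the replicates.

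**Figure D1:**
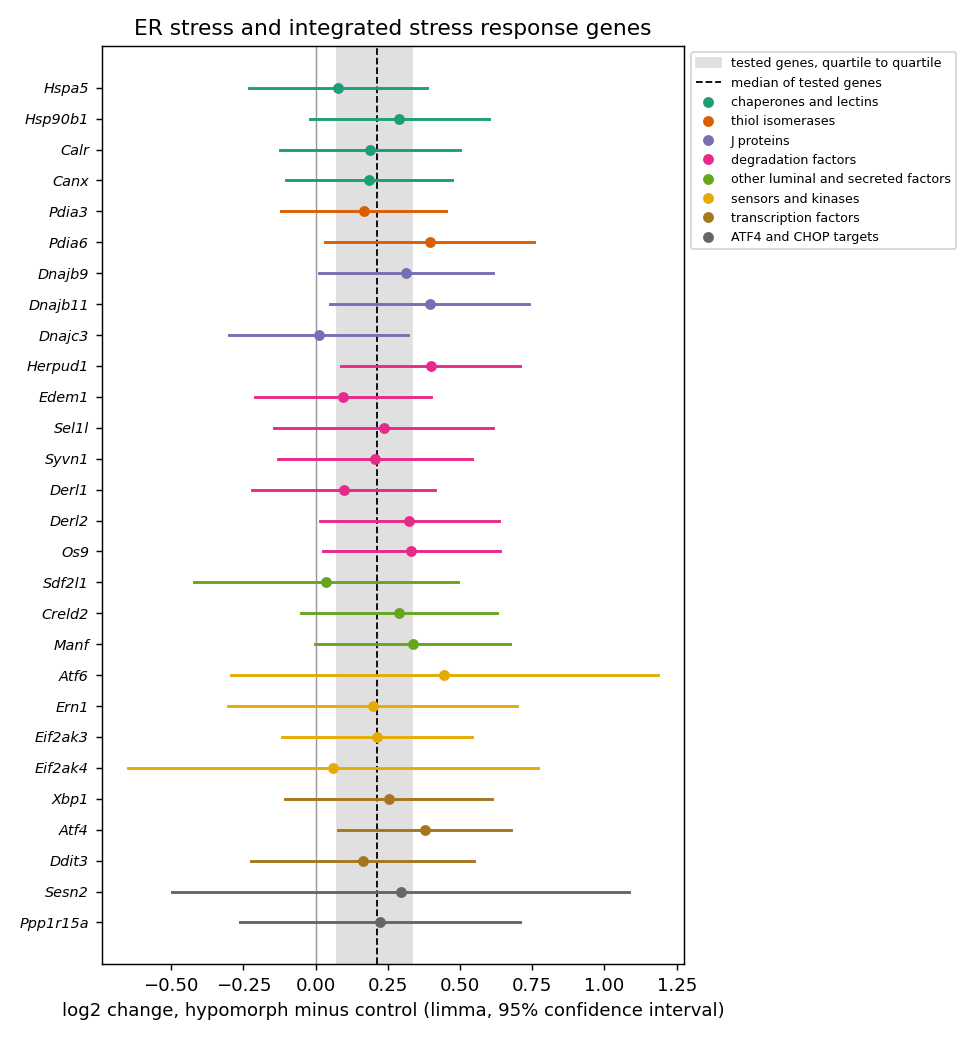
Log2 change, hypomorph minus control, with its 95% confidence interval for the 28 tested genes, coloured by role. The dashed line is the median of the 10232 tested genes (0.21) and the grey band spans their quartiles; 19 of the 28 points lie in the band and every interval crosses the dashed line.

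The samples matched their labels as far as they could be checked. Atg16l1 had signals of 108 and 70.8 in the hypomorphs and 184 and 241 in the controls (log2 change -1.57 ± 0.18 SE, adjusted p 0.0142 in limma). Median deposited signals of replicates 1 and 2 were 38.4 and 27.4 for the hypomorphs and 23.5 and 27.4 for the controls, so deposited signals of hypomorph replicate 1 read high for most genes. The ratio of 3' to 5' signals was 0.797 to 0.817 for Gapdh and 1.23 to 1.41 for actin, where hypomorph replicate 1 had the lowest value of both. Of 10 thymocyte markers, 9 were named by a probe set with 1 symbol and all 9 were tested, with Rag1 at 5620 to 8417 and Cd8a at 2934 to 4557. Their relative changes were below 0 for 6 and above 0 for 3, with a median of -0.14. In bulk cells, fewer cells of a type and less RNA per cell cannot be told apart.

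The promoters of several of these genes hold matches to the letters of ER stress elements. The ER stress response element (ERSE), bound by ATF6 with NF-Y and by XBP1, reads CCAAT, any 9 bases and CCACG. The related ERSE-II reads ATTGG, any 1 base and CCACG. A RefSeq promoter on assembly GRCm38.p6 was at hand for 30 of the 33 genes. The 250 bases before the start site were searched on both strands. ERSE was found in 8 of the 30 (26.7%) and in 0.113% of 32851 promoters, and ERSE-II in Herpud1 alone (3.33% of the 30, against 0.0304%). The genes were chosen by name as members of this response, so a higher share among them is no result of these data. The 30 are counted as genes, while the 32851 are promoters and include those of the 30. The matches and 10 bases to each side are shown on the strand of the gene, with the fixed letters of the motif in capitals (in reverse complement where the motif lies on the opposite strand), because they mark the targets on which a change of ATF6 or XBP1 activity would be sought:
Hspa5: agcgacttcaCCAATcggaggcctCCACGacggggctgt
Hsp90b1, far match: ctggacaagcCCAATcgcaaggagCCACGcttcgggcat
Hsp90b1, near match: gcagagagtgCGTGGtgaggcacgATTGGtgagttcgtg
Calr: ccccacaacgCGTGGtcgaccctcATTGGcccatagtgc
Canx: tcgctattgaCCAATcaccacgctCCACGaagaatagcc
Pdia6: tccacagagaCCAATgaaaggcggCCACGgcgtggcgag
Dnajc3: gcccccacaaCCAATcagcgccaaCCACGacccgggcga
Syvn1: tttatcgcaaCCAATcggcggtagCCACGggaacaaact
Creld2: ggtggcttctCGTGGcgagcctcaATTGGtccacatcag
Herpud1, ERSE-II: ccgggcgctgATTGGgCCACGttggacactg

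The Hspa5 stretch is chr2:34772015-34772053 on the plus strand, with the match 65 to 47 bases before the start site. That of Herpud1 is chr8:94386367-94386397 on the plus strand, with the match 52 to 42 bases before it. Of the other ERSE matches the nearest to the start site is in Syvn1 (44 to 26 bases before it, chr19:6046522-6046560, plus strand) and the farthest is the far match of Hsp90b1 (212 to 194 bases, chr10:86705628-86705666, minus strand). A match is a description of the letters, not a shown binding site.

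Genes with and without an ERSE match were set side by side, without a test of the difference. All 8 with a match were tested, with relative changes from -0.20 to 0.18 and a median of -0.02, and 3 of the 8 lay above 0. The 17 other tested genes with a promoter in the table had a median of 0.02 and ranged from -0.18 to 0.19, with 11 above 0. Outside the genes described here, 5 tested genes had an ERSE match, of which 3 lay above the median of tested genes, with a median relative change of 0.04.

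**Figure D2:**
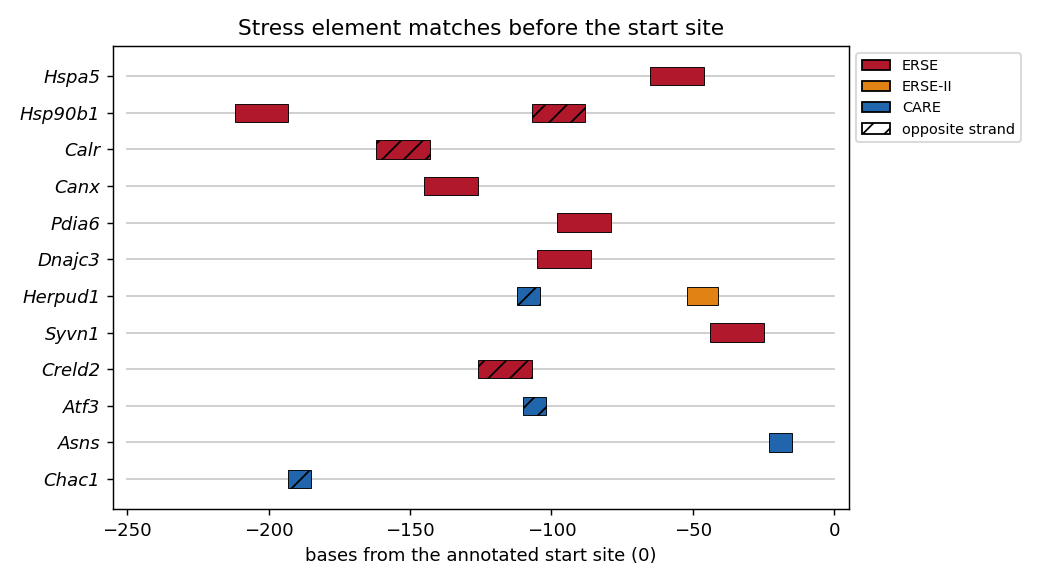
Position of ERSE, ERSE-II and CARE matches (the last an element bound by ATF4, described with its targets) in the 250 bases before the annotated start site of 12 genes; hatched bars are matches on the opposite strand. ERSE matches lie between 212 and 26 bases before the start site, and Hsp90b1 has 2.

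The chaperones and lectins were present at high signal in both groups. Hspa5 encodes BiP, the ER chaperone of the HSP70 family and the usual marker of the unfolded protein response. Its signals were 3066 and 2469 in the hypomorphs and 2043 and 2111 in the controls. The centred log2 signals were 11.19 and 11.34 against 11.26 and 11.11. On this probe set the groups overlapped, since hypomorph replicate 1 lay below control replicate 1. Hspa5 thus had a log2 change of 0.08 ± 0.14 (SE), or -0.13 relative to the tested genes (adjusted p 0.791 in limma). The relative interval of Hspa5 ran from 0.736-fold to 1.13-fold.

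Hsp90b1, which encodes GRP94, the ER chaperone of the HSP90 family, had signals of 2738 and 1654 in the hypomorphs and 1266 and 1516 in the controls. Centred log2 signals were 11.03 and 10.76 against 10.57 and 10.63, so the groups did not overlap and hypomorph replicate 1 was the highest. Hsp90b1 had a log2 change of 0.29 ± 0.14 (adjusted p 0.328 in limma), which is 0.08 relative to the tested genes.

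Calr and Canx encode calreticulin and calnexin, the lectins that retain glycoproteins until they are folded. Calr had signals of 2385 and 2095 against 1472 and 1660. Its centred log2 signals were 10.83 and 11.10 against 10.79 and 10.76, so that hypomorph replicate 1 lay close to the controls and replicate 2 above them. The log2 change of Calr was 0.19 ± 0.14 and that of Canx 0.19 ± 0.13, both -0.02 or -0.03 relative to the tested genes, with adjusted p-values of 0.500 and 0.471 in limma. The other probe sets of Calr had larger log2 changes, 0.26 and 0.39, with groups that did not overlap. At 0.39 the adjusted p was 0.247 in limma, the lowest of all tested probe sets of the genes described. Other probe sets of Canx were at 0.23 and 0.27, with overlapping groups. Of these 4 genes, 3 had groups that did not overlap on the higher side, against 51.7% of all tested genes.

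Among the protein disulfide isomerases, which form and rearrange disulfide bonds in the ER, Pdia6 had signals of 754 and 525 in the hypomorphs and 302 and 478 in the controls. Its centred log2 signals were 9.17 and 9.11 against 8.52 and 8.97. Control replicate 1 was the low array, and control replicate 2 lay close to the hypomorphs. Pdia6 had a log2 change of 0.39 ± 0.16 (adjusted p 0.290 in limma), or 0.18 relative to the tested genes, with relative values of 0.01 to 0.36 when single arrays were left out. Pdia3, the isomerase that works with calnexin and calreticulin, had a relative change of -0.05 (adjusted p 0.515). Pdia4 was too dim to be tested, with signals of 23.1 and 23.4 against 30.4 and 26.8.

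J proteins stimulate the ATPase of HSP70 chaperones, here that of BiP. Dnajb9, a target of XBP1 that also restrains IRE1, had signals of 538 and 405 in the hypomorphs and 274 and 325 in the controls. Its centred log2 signals were 8.69 and 8.73 against 8.37 and 8.42. The arrays of each group lay close together, and the groups did not overlap. Dnajb9 had a log2 change of 0.31 ± 0.14 (adjusted p 0.300 in limma), or 0.10 relative to the tested genes.

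Dnajb11 had signals of 429 and 288 against 216 and 208, and centred log2 signals of 8.36 and 8.24 against 8.04 and 7.78. The groups did not overlap and control replicate 2 was the lowest. Its log2 change was 0.40 ± 0.16 (adjusted p 0.283), or 0.18 relative to the tested genes. Dnajc3, which encodes the co-chaperone P58IPK, lay at the other end, with a log2 change of 0.01 ± 0.14 and a relative change of -0.20 (adjusted p 0.975). Signals of Dnajc3 on control replicate 2 exceeded those on hypomorph replicate 2 (1088 and 959), and the groups overlapped.

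**Figure D3:**
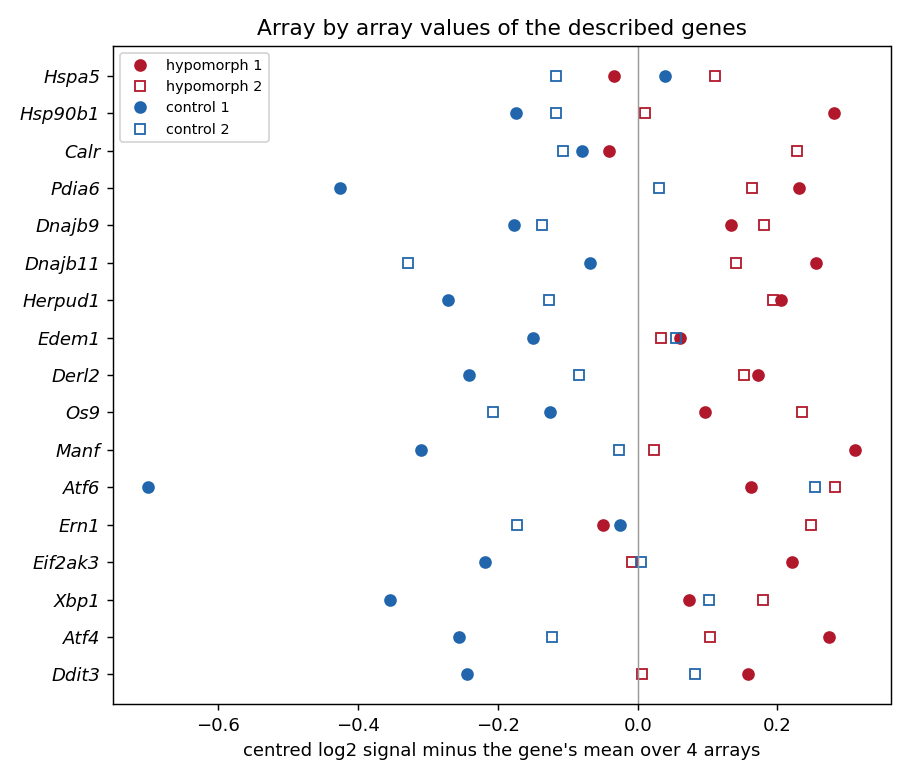
Centred log2 signal of each array minus the gene's mean over the 4 arrays, for the 17 genes whose values are given array by array (red hypomorph, blue control; circles replicate 1, squares replicate 2). Groups are apart for Dnajb9, Herpud1 and Atf4, and overlap for Hspa5, Xbp1 and Ddit3. Control replicate 1 is the lowest array for Pdia6, Atf6 and Xbp1, among others.

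The degradation factors move misfolded proteins out of the ER and hand them to the proteasome. Herpud1, a membrane protein of the degradation complex and the only one of these genes with an ERSE-II match, had the smallest p-value of the 28 (unadjusted p 0.0162, adjusted p 0.255 in limma). Its signals were 540 and 390 in the hypomorphs and 245 and 312 in the controls. Centred log2 signals were 8.69 and 8.68 against 8.22 and 8.36, so both hypomorph arrays lay above both controls. The log2 change was 0.40 ± 0.14, a 1.32-fold difference, of which 0.19 was left relative to the tested genes.

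Derl2 encodes a derlin, a channel component, and had signals of 540 and 387 against 256 and 329. Its centred log2 signals were 8.69 and 8.67 against 8.28 and 8.43, without overlap. Os9, a lectin that recognises trimmed glycans, had signals of 546 and 437 against 296 and 322, with centred log2 signals of 8.71 and 8.84 against 8.48 and 8.40. For both genes the hypomorph arrays were the higher pair. Log2 changes were 0.32 ± 0.14 for Derl2 and 0.33 ± 0.14 for Os9 (adjusted p 0.299 and 0.292 in limma), or 0.11 and 0.12 relative to the tested genes.

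Edem1, which directs mannose-trimmed glycoproteins to degradation, had a smaller change than these genes on its brightest probe set, a difference that was not tested. Its signals were 2928 and 2093 in the hypomorphs and 1604 and 2126 in the controls, with centred log2 signals of 11.12 and 11.10 against 10.91 and 11.12. Only control replicate 1 was lower, and the groups overlapped. The log2 change was 0.09 ± 0.14 (adjusted p 0.742 in limma), or -0.12 relative to the tested genes. The other probe set of Edem1 had signals of 2315 and 1852 against 1230 and 1644. Its log2 change was 0.21 ± 0.14 (adjusted p 0.442 in limma), and its groups did not overlap, as for 51.7% of tested genes on the higher side. Sel1l and Syvn1, the adaptor and the ubiquitin ligase of the HRD1 complex, had relative changes of 0.02 and -0.01, and Derl1 had one of -0.11, with overlapping groups and adjusted p-values of 0.485, 0.495 and 0.742. Of the 7 degradation factors 4 thus lay above the median of tested genes and 3 below it.

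Manf, a secreted factor released under ER stress, had signals of 1497 and 894 in the hypomorphs and 616 and 863 in the controls. Its centred log2 signals were 10.16 and 9.87 against 9.54 and 9.82. Hypomorph replicate 2 was close to control replicate 2, and the log2 change was 0.34 ± 0.15 (adjusted p 0.310 in limma). Creld2, another secreted target of the response, had a relative change of 0.08 (adjusted p 0.355). Sdf2l1, a luminal partner of J proteins, had one of -0.18 (adjusted p 0.941) with overlapping groups.

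None of the 4 sensors and kinases had groups that did not overlap on the brightest probe set. Over all tested genes the groups did not overlap for 51.7% on the higher side and 4.93% on the lower. Atf6 had the largest log2 change of the 28 genes, 0.45 ± 0.34, at an adjusted p of 0.499 (limma). Its signals were 72.5 and 57.0 in the hypomorphs and 23.8 and 55.9 in the controls, and its centred log2 signals 5.83 and 5.95 against 4.97 and 5.93. On this probe set the difference came from control replicate 1, since control replicate 2 lay between the hypomorph arrays. Without control replicate 1 the log2 change of Atf6 was -0.03, and without control replicate 2 it was 0.92.

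Ern1 had signals of 102 and 91.2 in the hypomorphs and 65.1 and 67.6 in the controls. After centring it was at 6.31 and 6.61 against 6.34 and 6.19, so the apparent separation of the deposited signals was not kept. Its log2 change was 0.20 ± 0.23 (adjusted p 0.663 in limma), or -0.01 relative to the tested genes. Eif2ak3 had signals of 658 and 408 against 307 and 412, with centred log2 signals of 8.98 and 8.74 against 8.53 and 8.76. Hypomorph replicate 2 and control replicate 2 were nearly equal. The log2 change of Eif2ak3 was 0.21 ± 0.15 (adjusted p 0.471), which equals that of the median tested gene to 2 decimals. Eif2ak4 had a relative change of -0.15 (adjusted p 0.936).

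Xbp1 encodes the transcription factor that IRE1 activates by splicing. Its signals were 2265 and 1776 in the hypomorphs and 1066 and 1683 in the controls, and the centred log2 signals 10.75 and 10.86 against 10.33 and 10.78. Control replicate 2 lay between the hypomorph arrays. The log2 change was 0.25 ± 0.16 (adjusted p 0.433 in limma), or 0.04 relative to the tested genes. The deposited table gives one value per probe set and does not separate spliced from unspliced Xbp1 mRNA.

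Atf4, the transcription factor of the integrated stress response, had signals of 1024 and 663 in the hypomorphs and 448 and 566 in the controls. Centred log2 signals were 9.61 and 9.44 against 9.08 and 9.21, without overlap between the groups. The log2 change was 0.38 ± 0.14 (unadjusted p 0.0177, adjusted p 0.262 in limma), or 0.17 relative to the tested genes. Ddit3 encodes CHOP, a factor induced downstream of ATF4 and linked to cell death. Ddit3 had signals of 285 and 186 against 136 and 197, and centred log2 signals of 7.77 and 7.62 against 7.37 and 7.70. The groups overlapped, and the log2 change was 0.16 ± 0.18 (adjusted p 0.640), or -0.05 relative to the tested genes. Atf3, a stress-induced factor of the same family, was not tested, at 14.3 and 3.83 against 2.42 and 20.1.

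Of the 5 targets of ATF4 and CHOP among the genes described, 3 were too dim to be tested, while 22 of 26 further ATF4 targets on the array were tested. Trib3, a pseudokinase that restrains ATF4, had signals of 35.0 and 22.4 in the hypomorphs and 15.6 and 22.7 in the controls. Asns, the asparagine synthetase gene and a standard target of ATF4, had 25.8 and 10.7 against 16.3 and 21.8. Chac1, a glutathione-degrading enzyme, had 30.9 and 17.2 against 29.8 and 17.6. All 3 were below the level set for testing on the mean of the 4 arrays, and none was bright on a single array. The deposited values carry no detection calls, so it was not established that these mRNAs were present. The 2 tested targets were Sesn2, an inhibitor of mTORC1 signalling, and Ppp1r15a, which encodes the GADD34 subunit of the phosphatase that restores eIF2 alpha. Their relative changes were 0.08 and 0.01, with adjusted p-values of 0.683 and 0.609 in limma. For Sesn2 the array left out mattered, as its relative change ran from -0.43 to 0.60.

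The element bound by ATF4 with C/EBP factors (CARE) was searched as TGATGNAA in the same 250 bases and on both strands. It was found in 4 of the 30 genes with a promoter (13.3%) and in 3.45% of all promoters, with the same limits as for ERSE. It is shown with 10 bases to each side, fixed letters in capitals, because 3 of the 4 genes were the dim ones:
Asns: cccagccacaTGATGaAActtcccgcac
Atf3: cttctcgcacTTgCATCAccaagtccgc
Chac1: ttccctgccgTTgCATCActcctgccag
Herpud1: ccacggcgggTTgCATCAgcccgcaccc

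The Asns stretch lies at chr6:7693215-7693242 on the minus strand and the Herpud1 stretch at chr8:94386307-94386334 on the plus strand. In Herpud1 the CARE match does not overlap the ERSE-II match. Of these 4 genes only Herpud1 was tested. Among other genes of the table with a CARE match, 87 of 190 tested ones lay above the median of tested genes, with a median relative change of -0.01.

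Other probe sets of a gene mostly lay inside the interval of its brightest one. The 33 genes have 77 probe sets that carry their symbol alone, of which 59 were tested. Of the 59, 0 passed in limma (against 0.0622% of the 22519 tested probe sets), at a lowest adjusted p of 0.247. An unadjusted p under 0.05 was reached by 12 of the 59, where 16.1% of all tested probe sets reached it. For the 18 genes with more than 1 tested probe set, 28 of 31 other probe sets had the sign of the brightest one and 29 of 31 lay inside its 95% interval. As 82.6% of tested genes had a change above 0, a shared sign says little about agreement. In relative change, the other probe sets of Hspa5, Calr, Canx, Derl1, Derl2, Edem1, Eif2ak4, Syvn1 and Xbp1 lay across 0 from the brightest. For Derl2 the brightest was at 0.11 and the other at -0.03. Of Sel1l, 1 other probe set lay across 0, at -0.09 against 0.02. The other probe sets of Herpud1, Atf4 and Os9, among others, kept the side of the brightest. The other probe sets of Hspa5 had log2 changes of 0.21 and 0.32, above the 0.08 of the brightest. On both of them the hypomorph arrays lay above the controls, unlike on the brightest. Opposite in sign were 1 probe set of Ern1, at -0.32 ± 0.33 against 0.20, and 2 of Dnajc3, at -0.10 and -0.03 against 0.01. Outside the interval were that of Ern1 and a dim probe set of Sel1l at 0.85 ± 0.37, whose brightest was at 0.24. The other tested probe set of Atf6 had a log2 change of 0.94 ± 0.35 (adjusted p 0.275), with signals of 63.4 and 46.1 in the hypomorphs and 14.1 and 31.0 in the controls. On that probe set the groups did not overlap, unlike on the brightest.

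**Figure D4:**
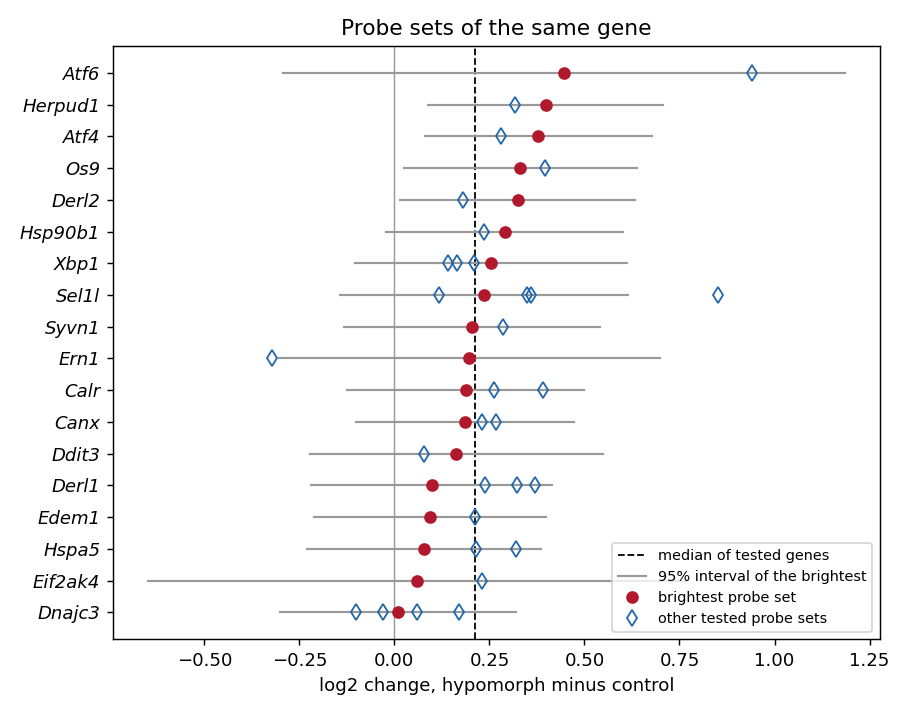
Log2 change of the brightest probe set (red, with its 95% interval) and of the other tested probe sets (blue diamonds) for the 18 genes with more than 1 tested probe set; the dashed line is the median of tested genes. Of the diamonds, 29 of 31 lie inside the interval; those outside belong to Sel1l and Ern1.

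Arrays of the same group differed by amounts of the same order as the relative change between groups. That change is a difference of means and so varies less than one of single arrays. The median size of the difference between the 2 arrays of a group was 0.15 on the log2 scale in the hypomorphs and 0.18 in the controls over the 28 genes, and the median size of their relative change was 0.11. Over all tested genes these values were 0.18, 0.18 and 0.13. The measures differ, as the relative change has the shift of the tested genes removed. The differences within groups keep theirs, a median of -0.08 in the hypomorphs and -0.10 in the controls (replicate 1 minus replicate 2). Before the shift was removed, the median change of the 28 genes was 0.23. Groups did not overlap on the higher side for 14 of the 28 genes (50%), against 51.7% of tested genes, and on the lower side for 0, against 4.93%. Hypomorph replicate 1 exceeded replicate 2 after centring for 16 of the 28 (57.1%), against 36.4% of tested genes. Control replicate 1 lay below control replicate 2 for 18 of the 28 (64.3%), against 66.8%. Without hypomorph replicate 2 the median relative change of the 28 genes was 0.08, against 0.02 with all arrays.

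A wider list of 92 pathway genes of the same processes was read beside them. Of these, 87 were named by a probe set with 1 symbol and 80 were tested. Among the 80, 0 passed in limma in either direction, at a lowest adjusted p of 0.196, where 0.0489% of tested genes passed. With quantile normalization the lowest adjusted p was 0.701 in limma. An unadjusted p under 0.05 was reached by 29 on the higher side (36.2%, against 18.3% of tested genes) and by 2 on the lower. Over both sides together it was reached by 19.2% of tested genes. The median relative change of the 80 was 0.07, with 54 above and 26 below the median of tested genes. The smallest p-values belonged to Ssr3 and Ssr1, subunits of the translocon-associated complex, with log2 changes of 0.55 ± 0.13 and 0.54 ± 0.13. Next were Fkbp2, an ER prolyl isomerase, at 0.54 ± 0.14 and Man1b1, the ER mannosidase that marks glycoproteins for degradation, at 0.71 ± 0.19, with adjusted p-values of 0.196 to 0.217 for these 4. Relative to the tested genes the changes were 0.33 for Ssr3, Ssr1 and Fkbp2 and 0.50 for Man1b1. By class, the median relative change was 0.10 for 22 folding and translocation genes, 0.10 for 17 degradation genes, 0.01 for 19 sensors and regulators and 0.10 for 22 ATF4 targets, of which 18 lay above 0.

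**Figure D5:**
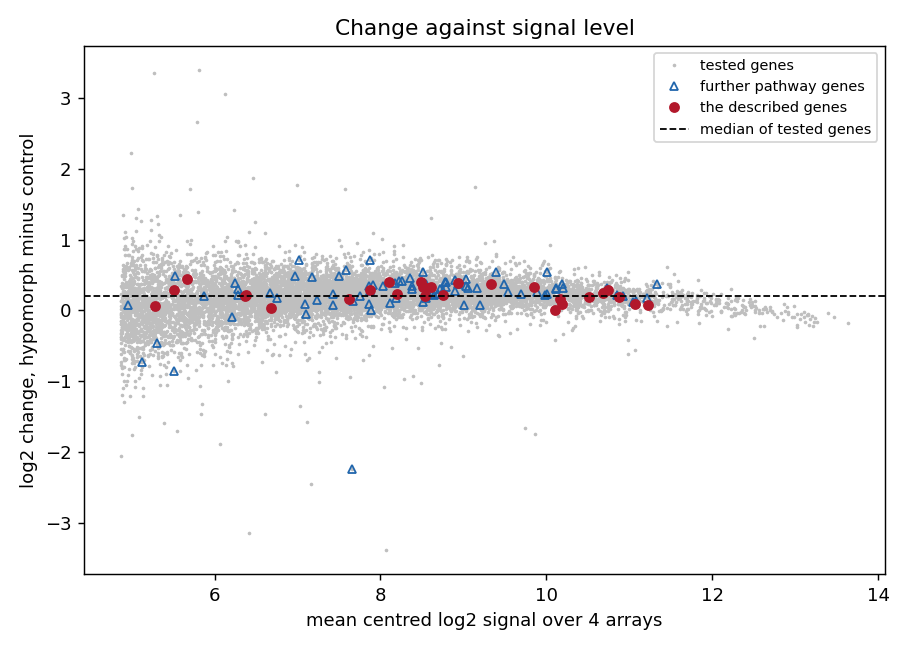
Log2 change, hypomorph minus control, against the mean centred log2 signal over 4 arrays, for all tested genes (grey), the 28 tested genes described here (red circles) and 80 further pathway genes (blue triangles). The red circles follow the dashed median of tested genes; the low triangle at -2.24 is Bfar.

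Markers of other cells of the thymus were read beside these values, and none passed singly. Of 7 tested B and plasma cell genes, 6 had a relative change below 0, with a list median of -0.56, and the summed centred signal of the 9 genes on the array was 909 to 919 in the hypomorphs and 1022 to 1127 in the controls. Of 5 tested macrophage genes, 5 lay below 0, with a summed signal over 7 genes of 295 to 511 against 475 to 556. Of 5 tested dendritic cell genes, 4 lay below 0, with a sum over 6 genes of 207 to 242 against 229 to 275. The sums overlap between the groups for macrophages and dendritic cells. Granulocyte genes stood apart on control replicate 1: their summed centred signal was 646 there and 5775 on control replicate 2, against 2196 and 3673 in the hypomorphs. Of the genes described, control replicate 1 was the lowest array for Pdia6, Atf6, Xbp1, Herpud1, Dnajb9 and Atf4, among others. It was not the lowest for Hspa5, Calr, Canx, Dnajb11, Os9 and Sel1l, among others. By a different measure, control replicate 1 lay below control replicate 2 for 64.3% of the 28 genes and 66.8% of tested genes. A relation to the granulocyte signal was not tested. No marker is listed at 0. Plasma cells carry much ER, and the part of any of these cells in the values above was not tested. Immediate early genes, which respond to cell handling, had 7 of 9 tested members below 0, with a median relative change of -0.11.

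The sign of small changes and the number of small unadjusted p-values differed between settings. With quantile normalization the median change of tested genes was 0.02, the log2 changes were -0.09 for Hspa5, 0.17 for Herpud1, 0.13 for Atf4 and 0.04 for Xbp1, and the lowest adjusted p among the 28 genes was 0.752. The number of the 28 at an unadjusted p under 0.05, which was 7, was 0 with quantile normalization, 0 with cyclic loess and 0 with arrays centred on the tested probe sets. Over all 15 alternatives 0 of the genes passed, at a lowest adjusted p of 0.154. Relative to the tested genes, Pdia6, Dnajb9, Dnajb11, Herpud1, Derl2, Os9 and Atf4 were above 0 under all of these settings, and Dnajc3, Edem1 and Sdf2l1 were below 0 under each setting in which they were tested. These settings share the same 4 arrays, so this is no independent support. The other tested probe set of Derl2 had a relative change of -0.03 in the main analysis.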

How the data were processed

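Biotin-labelled total RNA of 4 mice was hybridised to Affymetrix arrays, per the labels' protocols. The authors deposited 1 linear intensity per probe set and array, produced by GCOS (submitters' processing notes). Version and scaling are not stated in those notes, and detection calls were not used here. Of 45101 probe sets, 64 controls were left out; of the rest 34945 carried 1 symbol, 932 several and 9160 none. A pseudocount of 2.29 (the 10th percentile of all signals) was added before log2 was taken, and the 4 arrays were shifted to equal medians. Fold changes on this scale understate those of dim genes. The 22519 probe sets with a mean log2 value at or above the median were tested with limma 3.58.1 in R 4.3.3 (two-sided, eBayes with trend), with Benjamini-Hochberg adjustment over all of them and a threshold of 0.05. No covariate was used. At most 1 value was identical between any pair of arrays.

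The 33 members and all lists were chosen with earlier results of these data known. Array values are given for the 8 tested members with the smallest p, the 4 brightest and Hspa5, Xbp1, Atf4, Ddit3, Dnajb9, Ern1, Eif2ak3 and Atf6. Of the further pathway genes the 4 with the smallest p are named. Promoters came from RefSeq (GRCm38.p6). Lists of granulocyte, thymic epithelial, erythroid and stromal markers were also read, with median relative changes of 0.28, 0.12, 0.18 and -0.19 over 6, 3, 1 and 2 tested genes. Alternatives were other normalizations, pseudocounts and filters, no variance trend, the replicate number as a block, all probe sets of a gene, and each array left out.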

Additional observations from a re-analysis of the deposited data

How the results depend on the processing

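No alternative called any of the tested stress genes. The number of all probe sets called, 14 in the main analysis, was 7 after centring on tested probe sets only, 4 with quantile normalization, 84 without centring, 5 with cyclic loess, 4 without the filter and 0 without the variance trend (limma, 2492 at an unadjusted p under 0.05). Higher in the hypomorphs were 11 of the 14, 4 of the 7, 73 of the 84 and 4 of the 4 without the filter. The count was 8 to 340 when single arrays were left out: 340 without hypomorph replicate 1, 58 without hypomorph replicate 2, 8 without control replicate 1 and 22 without control replicate 2. Same-numbered animals are not said to be paired, their deviations correlated at 0.08 over the tested probe sets, and with the replicate number as a block 9 probe sets and 0 stress genes were called.

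The number of stress genes above the median of tested genes was 14 to 18 of 28 when single arrays were left out, 12 of 22 with the filter at the 75th percentile, 23 of 33 without a filter and 20 of 28 with the mean of all probe sets. Their median relative change, 0.02, was -0.0045 to 0.0785 when single arrays were left out, the highest without hypomorph replicate 2. Of the further pathway genes 0 were called, with 1 (Bfar) without centring; leaving out single arrays gave 0 to 1, the call being Bfar without hypomorph replicate 1 and Ero1b without control replicate 2.

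Of 253 values of the 17 genes followed, 236 kept direction and side of the threshold and 17 turned in direction. With quantile normalization, cyclic loess and centring on tested probe sets the log2 change was -0.0945, -0.105 and -0.0967 for Hspa5, -0.0886, -0.0917 and -0.0798 for Edem1, and -0.0396, -0.0461 and -0.0108 for Ddit3. With the first and second of these it was -0.00354 and -0.0031 for Calr and -0.0277 and -0.0185 for Eif2ak3. The median change of tested genes was 0.02 with the first and second and 0.04 with the third, against 0.21. The mean of all tested probe sets turned Ern1 to -0.0622. Leaving out single arrays gave -0.0316 to 0.923 for Atf6, -0.00853 to 0.196 for Edem1 and -0.000276 to 0.155 for Hspa5; the cause was not tested. With 2 arrays a group, and dim signals for Pdia4, Atf3, Trib3, Asns and Chac1, small changes could not be called.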

Other observations

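Bfar, which encodes an ER membrane ubiquitin ligase linked to cell death, was named after its values were seen. Its signals were 533 and 18.1 in the hypomorphs and 347 and 440 in the controls, so hypomorph replicate 2 lay far below the other 3 arrays. The log2 change was -2.24 ± 0.92 (adjusted p 0.290 in limma). Wfs1, the gene of the ER membrane protein wolframin, was chosen in the same way and was the other lower gene at an unadjusted p under 0.05, with a log2 change of -0.85 (adjusted p 0.247).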
